A study of Mus musculus with 16 samples.

Results

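The 10 genes described here encode hepatic growth factors and their receptors: Hgf and its receptor Met, Igf1 and the binding protein Igfbp1, the receptor Egfr with its ligands Areg, Hbegf and Tgfa, and the vascular factors Vegfa and Angpt1. They were taken from the arrays by the annotation symbol of each probe's accession, 18 probes for these 10 of 16535 named genes, and the brightest probe stood for a gene. The samples were whole liver and inflammatory cells of female C57Bl/6 mice, all kept on an atherogenic high-fat diet for 40 weeks as a model of cirrhosis. One set received adipose tissue-derived stem cells (ADSC), grown from the inguinal fat of GFP-transgenic mice, and the other phosphate-buffered saline (PBS). Per the labels the cells were given under the capsule of the spleen, 100000 cells in each of 2 injections 2 weeks apart, and the tissue dates from 2 weeks after the second injection. The 4 groups had 4 arrays each, namely liver PBS (numbers 11 to 14), liver ADSC (7 to 10), inflammatory cells PBS (11 to 14) and inflammatory cells ADSC (7 to 10). The labels give no untreated or diet-free group, and the injected cells are themselves mouse cells, so a transcript of theirs cannot be told apart from the host's on these arrays. They do not say that each array is a separate animal, so p-values measure the spread between samples, which may be technical. The extraction protocol speaks of cells infiltrating a tumor and of blood, which leaves the isolation of the inflammatory cells unclear.

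Hepatocyte growth factor (HGF) is a secreted protein, made in liver mainly by stellate and endothelial cells, which signals to hepatocytes through the receptor tyrosine kinase MET. Insulin-like growth factor 1 (IGF1) is made chiefly by hepatocytes under growth hormone and travels bound to binding proteins, of which IGFBP1 is a liver product repressed by insulin. Amphiregulin, HB-EGF and TGF-alpha are membrane-anchored ligands that are shed and then bind the EGF receptor, which hepatocytes carry in abundance. VEGF-A and angiopoietin 1 act on endothelial receptors. In the regenerating liver these factors drive hepatocyte division and the rebuilding of sinusoids, and they are often named as products of mesenchymal stem cells.

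All levels are log2 processed signals minus the 75th percentile of the same array, so 0 is the level of that percentile and 1 unit is a 2-fold step. They compare 1 probe across arrays and never 1 gene with another. That percentile was 117 to 522 signal units, lowest in inflammatory cells ADSC 8, and 51.6% to 66.3% of spots were well above background. Within a group, arrays correlated at 0.921 to 0.984 over probes. The exocrine pancreas marker list, which should be silent in liver, had a mean level of 6.4 in inflammatory cells PBS 11, 8.5 in PBS 13 and 8.6 in ADSC 10, so results of the inflammatory cells were also computed without these 3 arrays. The other 5 cell arrays had means of -1.61 to 2.46, also above the -4.62 to -3.63 of the liver arrays, so leaving out 3 arrays does not remove the signal. The 16 arrays were hybridised on 5 slides and scanned on 3 days. In liver only slide 2 and scan day 2 held both treatments.

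Areg and Hbegf were higher in inflammatory cells than in liver, and Igfbp1, Egfr, Igf1 and Hgf were lower, in a limma fit of all 16 arrays. That is 6 of the 9 tested genes, against 84.3% of all 22139 genes tested, so a difference of this kind was the rule in these samples. The 2 higher genes compare with 49% of all genes called higher, and the 4 lower genes with 35.2% called lower. For these 6 genes the 8 inflammatory cell arrays did not overlap the 8 liver arrays, which held for 57.7% of all genes. In bulk samples, fewer cells of a type and less RNA per cell cannot be told apart.

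**Figure D1:**
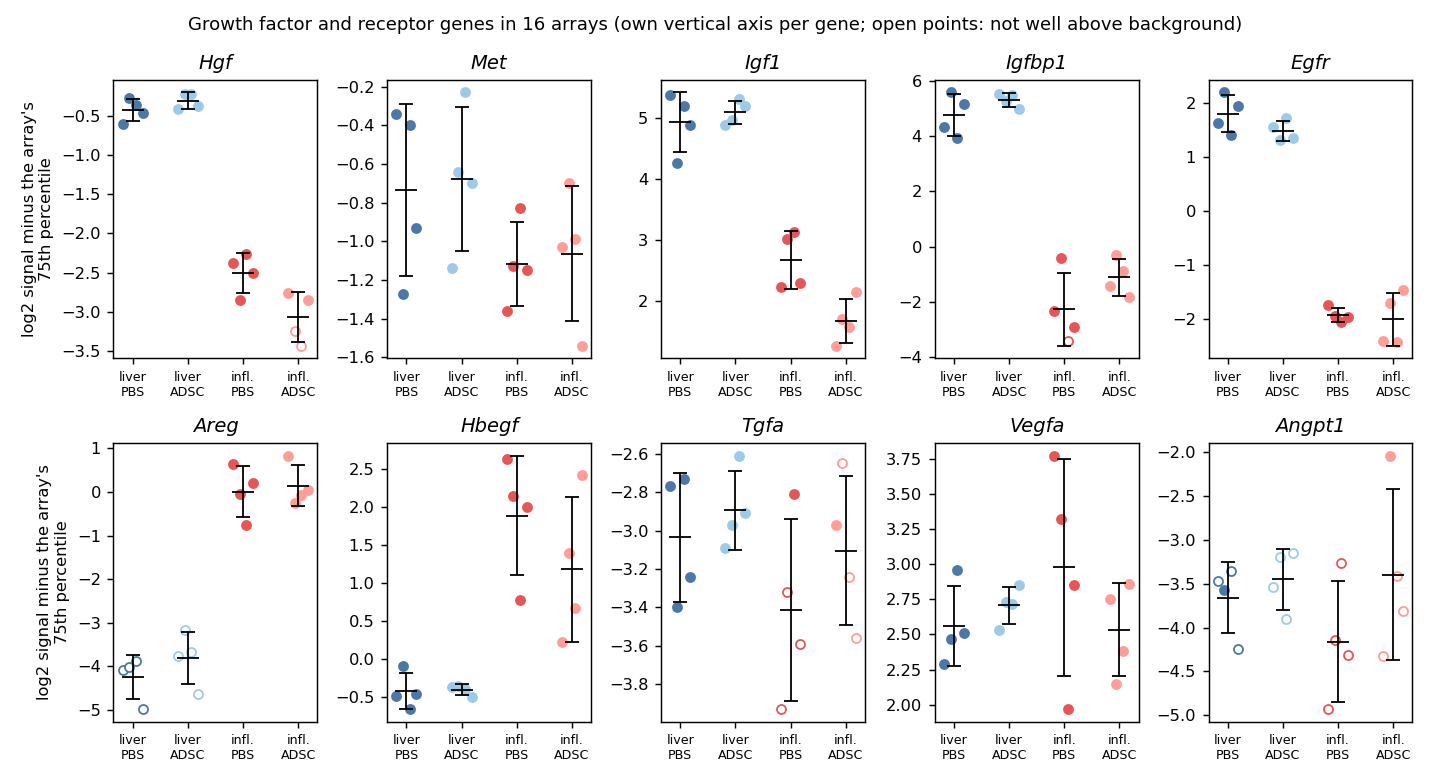
Log2 processed signal minus the array's 75th percentile (vertical axis, 1 scale per gene) of the 10 genes in the 4 groups (horizontal axis); each point is 1 array, the bar is the mean with its SD (n = 4), and open points were not well above background. Areg is open in all 8 liver arrays and filled in all 8 inflammatory cell arrays, Igfbp1 and Egfr lie several units lower in inflammatory cells, and Igf1 is the gene whose 2 inflammatory cell groups do not overlap.

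Areg, the EGF receptor ligand amphiregulin, stood at 0.63, -0.04, -0.76 and 0.21 in inflammatory cells PBS 11 to 14 and at 0.83, -0.25, -0.06 and 0.05 in ADSC 7 to 10. In liver no array had it well above background, with measured means of -4.24 ± 0.51 after PBS and -3.81 ± 0.61 after ADSC (SD, n = 4 each). The gene was therefore measured in the cell samples and had only an upper bound in liver. Its log2 difference was 4.10 with a standard error (SE) of 0.25 (limma, adjusted p = 3.4e-10). Since liver was at background, the fold is a bound: Areg was at least 12.3-fold higher in inflammatory cells, setting their mean against, on each liver array, whichever was higher of its own signal and the dimmest signal called above background. Since all cell arrays lay above all liver arrays, every pair of arrays with the same number and every slide shares this sign. Within the 5 slides the Areg difference was 3.74 to 4.11. After normexp background correction the difference was smaller, at 2.12, and still called. The bound, like the others given below, therefore holds for the processed signal only.

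The Areg promoter is shown because the gene had the largest rise of the 10. The window is the 250 bases before the RefSeq start site, chr5:91139349-91139598 on the plus strand of GRCm38.p6, written 5′ to 3′. Capitals mark the full cyclic AMP response element TGACGTCA, 61 bases upstream of the start, and the TATA box letters TATAAA, 31 bases upstream.
Areg: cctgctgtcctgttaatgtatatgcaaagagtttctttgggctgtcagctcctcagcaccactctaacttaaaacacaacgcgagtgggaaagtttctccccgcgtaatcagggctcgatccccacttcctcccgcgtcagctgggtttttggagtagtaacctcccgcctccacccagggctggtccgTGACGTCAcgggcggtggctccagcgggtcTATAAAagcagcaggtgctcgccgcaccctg
Of 32851 promoters of the same length, 1.55% hold TGACGTCA and 12.4% hold TATAAA on either strand. None of the other 7 genes with a promoter in the table, Igfbp1 included, holds TGACGTCA in this window. A match describes letters, not binding, and Hbegf and Angpt1 are not shown.

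Hbegf, which encodes a heparin-binding ligand of the EGF receptor, was detected in both sample types. Its levels were 2.63, 2.14, 0.78 and 2.00 in inflammatory cells PBS 11 to 14 and 0.23, 1.40, 0.67 and 2.42 in ADSC 7 to 10. In liver they were -0.48, -0.09, -0.65 and -0.46 after PBS and -0.36, -0.35, -0.39 and -0.50 after ADSC. All inflammatory cell arrays lay above all liver arrays, but the cell arrays spread over more than 2 units while the liver arrays stayed within 1. Hbegf was 3.85-fold higher in inflammatory cells (log2 difference 1.94, SE 0.29, limma adjusted p = 1.2e-05), and by 1.05 to 2.52 log2 units within the 5 slides. Without the 3 pancreas-rich arrays the difference kept its direction and its call.

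Igfbp1, the insulin-repressed carrier of IGF1 in blood, had the widest gap of the 10 genes. In liver its levels were 4.35, 5.60, 3.95 and 5.18 after PBS and 5.54, 5.29, 5.50 and 4.98 after ADSC. In inflammatory cells they were -2.34, -0.41, -3.44 and -2.93 after PBS and -1.45, -0.32, -0.88 and -1.83 after ADSC. The liver arrays were high throughout and the cell arrays low and scattered, with 1 PBS array not well above background. The gene was 108-fold lower in inflammatory cells (log2 difference -6.75, SE 0.38, limma adjusted p = 1.2e-10).

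Its promoter is shown as that of the gene with the largest fall. The window is chr11:7197537-7197786 on the plus strand of GRCm38.p6, from RefSeq, 250 bases before the start site. Capitals mark CAAAACA, the core of the insulin response element, 108 bases upstream of the start, and ATTAAC, which reads GTTAAT, letters bound by HNF1 factors, on the opposite strand, 56 bases upstream.
Igfbp1: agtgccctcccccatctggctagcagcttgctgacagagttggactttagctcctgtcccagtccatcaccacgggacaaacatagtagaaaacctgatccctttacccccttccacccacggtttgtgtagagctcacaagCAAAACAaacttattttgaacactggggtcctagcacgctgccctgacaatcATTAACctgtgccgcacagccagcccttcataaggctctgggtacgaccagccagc
On either strand, CAAAACA is in 5.56% and GTTAAT in 6.43% of the 32851 promoters. The Areg window holds GTTAAT too, 239 bases upstream, and lacks CAAAACA.

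Igf1 was abundant in liver, at 5.39, 4.27, 5.20 and 4.89 after PBS and 4.90, 4.98, 5.32 and 5.20 after ADSC. In inflammatory cells it reached 2.23, 3.02, 3.14 and 2.30 after PBS and 1.27, 1.71, 1.58 and 2.15 after ADSC. Every cell array was below every liver array, yet all 8 were well above background. The gene was 7.19-fold lower in inflammatory cells (log2 difference -2.85, SE 0.19, limma adjusted p = 1.1e-09). Hgf was lower by a like amount, 5.33-fold (log2 difference -2.41, SE 0.13, limma adjusted p = 6.8e-11). Its liver levels were -0.61, -0.28, -0.36 and -0.47 after PBS and -0.42, -0.22, -0.22 and -0.38 after ADSC. In inflammatory cells they were -2.38, -2.85, -2.26 and -2.51 after PBS and -2.76, -3.24, -3.43 and -2.85 after ADSC, where 2 of the 4 ADSC arrays were not well above background. The second Hgf probe was well above background on all 8 liver arrays but on 1 of 8 cell arrays, so its difference of -2.52 (SE 0.30) is set mostly against background. After normexp background correction the difference was -1.16 and still called.

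The receptors of these ligands split. Egfr was 12.2-fold lower in inflammatory cells (log2 difference -3.60, SE 0.16, limma adjusted p = 1.3e-11), at 1.63, 2.19, 1.41 and 1.94 in liver PBS, 1.55, 1.30, 1.71 and 1.35 in liver ADSC, and between -2.44 and -1.47 in the 8 cell arrays. Met, the receptor of HGF, differed by -0.39 (SE 0.18, 95% interval -0.77 to -0.01) and just missed the threshold (limma adjusted p = 0.053). Its liver levels were -0.34, -1.27, -0.40 and -0.93 after PBS and -1.14, -0.64, -0.23 and -0.70 after ADSC, and its cell levels -1.36, -1.13, -0.83 and -1.15 after PBS and -1.03, -0.70, -0.99 and -1.54 after ADSC. The ranges overlap widely, and Met was lower in only 6 of 8 pairs of arrays with the same number. The call depended on the setting, as Met passed with quantile normalization (-0.62), with array weights (-0.40), with the slide as a random block (-0.40), when only genes above background on all arrays were tested (-0.39), and without any 1 of 4 arrays, liver PBS 12 (-0.48), liver ADSC 7 (-0.47), inflammatory cells PBS 13 (-0.44) or ADSC 8 (-0.45).

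Vegfa, Tgfa and Angpt1 gave no call between the sample types with the brightest probe. Vegfa, the main endothelial growth factor, was well above background everywhere, at 2.29, 2.47, 2.96 and 2.51 in liver PBS and 2.53, 2.73, 2.72 and 2.85 in liver ADSC. In inflammatory cells it was 3.77, 3.32, 1.97 and 2.85 after PBS and 2.75, 2.15, 2.38 and 2.86 after ADSC, a difference from liver of 0.12 (SE 0.21, limma adjusted p = 0.60) that became -0.01 without inflammatory cells PBS 11. With quantile normalization Vegfa passed as higher, at 0.51. The cell arrays thus lay on both sides of the liver arrays. Tgfa was dim, well above background on 8 liver arrays and 2 cell arrays, and differed by -0.29 (SE 0.18, limma adjusted p = 0.14). Its sign turned with the scaling, to 0.13 after normexp background correction and to 0.03 with the percentile taken over detected probes. Tgfa passed as lower with quantile normalization (-1.24), with the mean of its probes (-0.77), with array weights (-0.35) and without inflammatory cells PBS 13 (-0.39). Angpt1, the TIE2 ligand, was well above background on 1 liver PBS array and 1 inflammatory cells ADSC array and was not tested, with group means from -4.16 to -3.39.

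The order of the 4 groups follows from these values. For Areg and Hbegf both cell groups stood above both liver groups, and for Igfbp1, Egfr and Hgf both liver groups stood above both cell groups. Within each such pair of neighbours the arrays overlapped, so the treatment did not order them. Only Igf1 had a further step, with liver ADSC and liver PBS overlapping at the top, then inflammatory cells PBS, then inflammatory cells ADSC with no overlap between the last 2. In Met, Vegfa and Tgfa all neighbouring groups overlapped.

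Several genes had more than 1 probe, and the probes did not always give 1 answer. Of the 4 Egfr probes, 2 were well above background on all 16 arrays: the brightest, 12.2-fold lower in inflammatory cells as given above, and A_52_P56471, which fell by 0.45 (SE 0.14, limma adjusted p = 0.0075 in a fit of all probes). The other 2 were well above background on no cell array and give bounds only, at least 9.60-fold lower for A_51_P392242 and at least 4.49-fold lower for A_52_P674338 (limma adjusted p = 1.5e-11 and 7.3e-11). The 3 Vegfa probes disagreed in sign: A_51_P482552 rose by 0.72 (SE 0.18, limma adjusted p = 0.0015), A_52_P249424 fell by 0.53 (SE 0.22, limma adjusted p = 0.038), and the brightest was not called. The second Tgfa probe, A_51_P415126, fell by 1.24 (SE 0.13, limma adjusted p = 1.4e-07) where the brighter one was not called, but it was well above background on 1 of 8 cell arrays, so this size is set mostly against background. For Egfr the direction was common to all 4 probes and the size was not, and for Vegfa and Tgfa the answer rests on the probe. Per the annotation, Vegfa probes carry accessions of 2 transcripts and Egfr probes likewise of 2, and which exons each probe reads was not examined.

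**Figure D2:**
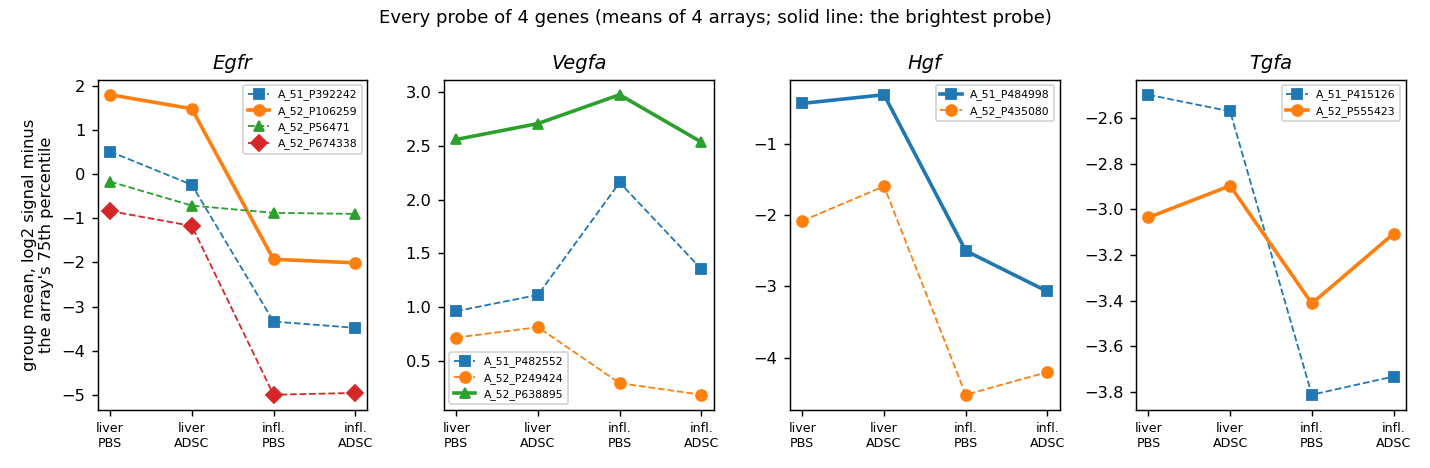
Group means over 4 arrays (vertical axis, log2 processed signal minus the array's 75th percentile) of every probe of Egfr, Vegfa, Hgf and Tgfa in the 4 groups (horizontal axis); the solid line is the brightest probe. The lines of 3 Egfr probes drop steeply between liver and inflammatory cells, 2 of them to background, and 1 stays nearly level. Of the Vegfa lines, A_51_P482552 is higher and A_52_P249424 lower in inflammatory cells PBS than in liver PBS.

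Cell type marker lists also differed between the sample types, where 49% of all genes tested were called higher and 35.2% lower. All 15 tested hepatocyte markers were lower in inflammatory cells, with array means of the list from 5.33 to 6.33 in liver and from 0.07 to 2.14 in the cells, where 13 or 14 of the 15 were still well above background. Of the stellate cell and fibroblast markers 13 of 15 were lower, and 12 of 13 endothelial markers. The exocrine pancreas list was higher for 12 of 12 genes, with the largest median of the marker lists (8.59), and the erythroid list for 5 of 5 (median 5.80). The neutrophil list was higher for 16 of 17 genes, the T cell list for 11 of 11, and the list of dissociation and immediate early genes for 16 of 16, with array means of 0.53 to 1.1 in liver and 5.27 to 6.63 in inflammatory cells. The monocyte and macrophage list went both ways, with 5 of 14 genes higher and 2 lower and a median of -0.11. The part of these cell types and of the immediate early genes in the 6 differences was not tested.

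The other genes of the pathways, on lists without the 10 genes, followed no single direction between the sample types. Each list count stands against the shares over all genes tested, 49% called higher and 35.2% called lower. Of the 22 genes around HGF activation and MET signalling, 7 were higher and 11 lower in inflammatory cells, with a median log2 difference of -0.49 against 0.36 over all genes tested. The falls were led by proteases and pro-factors that hepatocytes secrete or carry: F12, coagulation factor XII, at -6.09 (SE 0.27), Mst1, which encodes the HGF-like ligand MSP, at -5.60 (SE 0.22), Hpn, the surface protease hepsin, at -5.29 (SE 0.29), and Hgfac, the HGF activator, at -4.17 (SE 0.29). Plaur, the urokinase receptor, rose by 3.82 (SE 0.23). All 5 passed the limma test with an adjusted p of at most 1.2e-09.

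Of 20 IGF axis genes 14 were lower and 4 higher, with a median of -1.18. Igfbp2 fell by 6.08 (SE 0.24), the growth hormone receptor Ghr fell by 4.88 (SE 0.27), Igfals, the acid-labile subunit of the circulating IGF complex, well above background on 4 of 8 cell arrays, fell by 4.20 (SE 0.26), the protease Htra1 fell by 3.73 (SE 0.17) and Igfbp7 fell by 3.57 (SE 0.23). The IGF list thus held mostly genes that were lower beside Igf1 and Igfbp1. Of 16 genes for EGF ligands, receptors and shedding 4 were higher and 7 lower, with a median of -0.41. The ligand Epgn rose by 4.56 (SE 0.41), as Areg and Hbegf did, while the ligand Nrg4 fell by 3.23 (SE 0.26), the feedback inhibitor Errfi1 fell by 2.41 (SE 0.25), the co-receptor Erbb2, above background on 2 of 8 cell arrays, fell by 2.26 (SE 0.23) and Rhbdf1 fell by 2.02 (SE 0.14).

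All 19 tested genes of the VEGF and angiopoietin axis were called, against 84.3% of all genes tested. Of these 19, 7 were higher and 12 lower, with a median of -0.97. Vegfb rose by 3.06 (SE 0.19) and Pgf, placental growth factor, by 2.63 (SE 0.19), with Hif3a at 2.88 (SE 0.23), while Vegfd, above background on 1 of 8 cell arrays, fell by 3.37 (SE 0.34) and the endothelial receptor Tie1 fell by 2.86 (SE 0.48). Of 20 genes of receptor tyrosine kinase feedback and growth response 12 were higher and 6 lower, with a median of 0.77. Only 3 of them were lower after normexp background correction or with the percentile over detected probes. The kinase gene Pim1 led at 5.92 (SE 0.24), followed by Ier3 at 4.18 (SE 0.22), Fosl1, above background on 1 of 8 liver arrays, at 3.40 (SE 0.46), Egr1 at 3.32 (SE 0.27) and the phosphatase gene Dusp4 at 2.92 (SE 0.21). Ier3 and Egr1 are also on the immediate early list. Of 27 other hepatic mitogens and regeneration factors 6 were higher and 18 lower, with a median of -1.20. Il6 was well above background on no liver array and on all 8 cell arrays, so it was at least 47.8-fold higher. Fgf21 fell by 5.82 (SE 0.53), Pdgfra by 5.79 (SE 0.35), Pdgfrb by 5.50 (SE 0.29) and the FGF21 co-receptor Klb by 4.60 (SE 0.23), sizes set mostly against background, as these 4 were well above it on 1 to 3 of the 8 cell arrays. Across 3 other scalings the list medians kept these signs, while the median of all genes ran from 0.24 to 0.68.

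**Figure D3:**
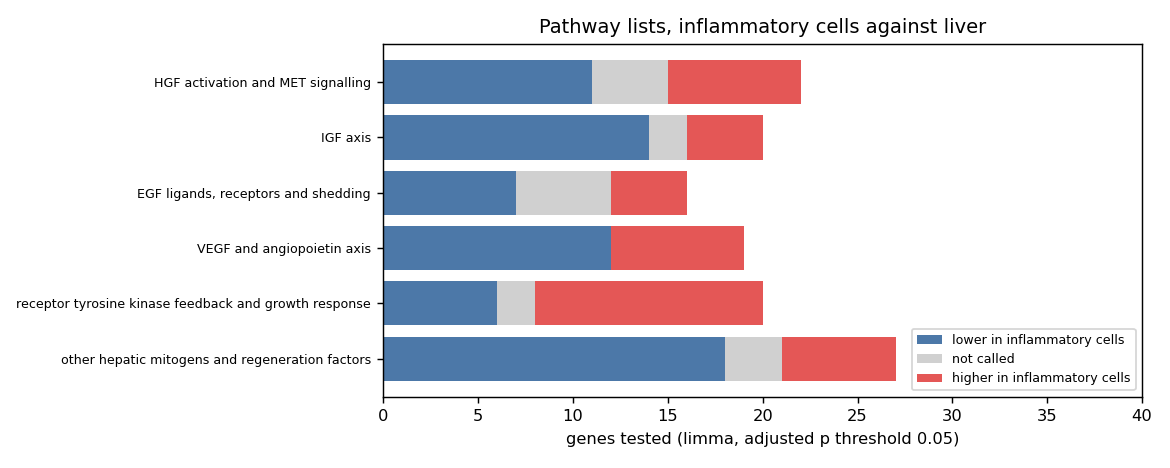
Number of tested genes (horizontal axis) of 6 pathway lists called lower, not called or called higher in inflammatory cells against liver (limma, adjusted p threshold 0.05). The IGF axis has 14 lower and 4 higher genes, and the receptor tyrosine kinase feedback list has 12 higher and 6 lower. Of all genes tested, 35.2% were called lower and 49% higher.

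Treatment with ADSC gave no call among the growth factor genes in liver. Of the 8 genes tested 0 passed the limma test, as did 0 of all 17321 genes tested (0%), and at an unadjusted p under 0.05 the count was 0 of 8 against 4.65% of all genes. The estimates were small: Hgf 0.12 (SE 0.11, 95% interval -0.13 to 0.38), Met 0.06 (SE 0.26, interval -0.53 to 0.65), Igf1 0.16 (SE 0.24, interval -0.38 to 0.70), Hbegf 0.02 (SE 0.13, interval -0.28 to 0.32), Vegfa 0.15 (SE 0.16, interval -0.21 to 0.51) and Tgfa 0.14 (SE 0.19, interval -0.28 to 0.56). For each of these 6 genes the interval leaves out a change of 1 log2 unit in either direction. Igfbp1 had the largest estimate, 0.56 (SE 0.35, interval -0.23 to 1.35), where 2 PBS arrays at 3.95 and 4.35 lay below all 4 ADSC arrays and another at 5.60 above them. It ran from 0.28 without PBS 13 to 0.83 without PBS 12, and array weights gave 0.21. Areg and Angpt1 were not tested here.

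Egfr was the 1 gene with an estimate below 0 in liver, at -0.32 (SE 0.18, interval -0.74 to 0.10, limma adjusted p = 1.00). All 4 of its probes were lower after ADSC, by 0.32 to 0.75, and for A_51_P392242 (-0.75, SE 0.18) the ADSC arrays lay below all PBS arrays, as they did for 1.24% of all genes, with an unadjusted p of 0.0026 and an adjusted p of 0.86 over all probes. Within scan day 2, with 1 PBS and 2 ADSC arrays, the brightest Egfr probe gave 0.22 in the opposite direction, while Igfbp1 gave 1.57, Igf1 -0.09 and Hgf 0.04. Treatment and slide can hardly be separated in liver. The neutrophil markers moved with the treatment there: 0 of 14 were called in limma, but 13 were lower at an unadjusted p under 0.05, against 2.04% of all genes, and 12 did not overlap between the groups. The array means of the list were -0.41 to 3.07 after PBS and -2.43 to -1.17 after ADSC, and its median difference was -3.22. The part of neutrophils in the liver values was not tested.

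In inflammatory cells 0 of 8 tested genes passed either, against 1.22% of all 20165 genes tested, of which 246 were called. At an unadjusted p under 0.05 there were 2 of 8, Igf1 and Hgf, both lower, against 18.5% of all genes, so that share is near the background. The median over the 8 genes was -0.26 against 0.03 over all genes tested. Igf1 was lower after ADSC by 0.99 log2 units (estimate -0.99, SE 0.29, 95% interval -1.63 to -0.36, unadjusted p = 0.0056, limma adjusted p = 0.14). The 4 ADSC arrays, at 1.27 to 2.15, lay below the 4 PBS arrays, at 2.23 to 3.14, a separation in the lower direction found for 6.67% of all genes. Within scan days 2 and 3 the estimate was -1.27 to -1.13, and within the 2 slides that held both treatments -1.75 to -0.51. The call turned on the setting: Igf1 passed with normexp background correction (-1.07, limma adjusted p = 0.046) and with array weights (-0.93, limma adjusted p = 0.026). Over the other alternatives that leave all arrays in or take out the 3 pancreas-rich ones the limma adjusted p reached 0.21. With 1 array left out in turn, Igf1 ran from -1.15 to -0.84 and was never called (limma adjusted p = 0.11 to 0.36).

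**Figure D4:**
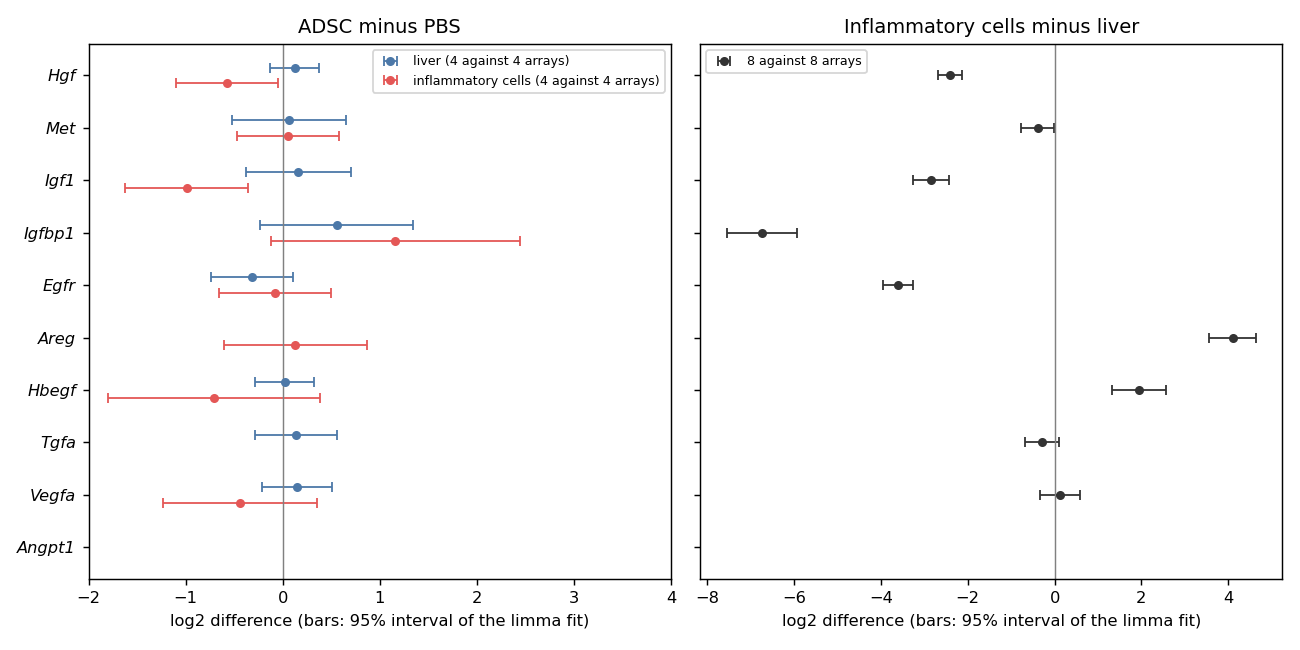
Log2 differences with 95% intervals of the limma fit (horizontal axis) for the genes tested (vertical axis); left, ADSC minus PBS in liver and in inflammatory cells (4 against 4 arrays each), right, inflammatory cells minus liver (8 against 8). On the left no gene was called and the interval of Igf1 in inflammatory cells lies wholly below 0, while on the right 6 of 9 genes were called and Igfbp1 lies farthest out.

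Hgf was lower after ADSC in inflammatory cells by 0.57 (estimate -0.57, SE 0.24, interval -1.1 to -0.05, unadjusted p = 0.036, limma adjusted p = 0.25), near the limit of detection and with overlapping arrays. It stood at 0.08 after normexp background correction, and its second probe, well above background on 1 of the 8 arrays, was higher by 0.32. Igfbp1 had the largest estimate, 1.16 (SE 0.58, interval -0.12 to 2.44, limma adjusted p = 0.31), with the PBS arrays spread over 3 log2 units. It ran from 0.77 without PBS 13 to 1.78 without PBS 12. Hbegf was at -0.71 (SE 0.50, interval -1.80 to 0.39), from -0.39 without ADSC 7 to -1.12 without ADSC 10, and at -1.31 without the 3 pancreas-rich arrays. Vegfa was at -0.44 (SE 0.36, interval -1.24 to 0.36), from -0.17 without PBS 11 to -0.78 without PBS 13. Its other probes gave -0.80 for A_51_P482552 (SE 0.29, unadjusted p = 0.018, limma adjusted p = 0.19) and -0.11 for A_52_P249424, so the size again rests on the probe. Areg was at 0.13 (SE 0.33, interval -0.61 to 0.87), Egfr at -0.08 (SE 0.26, interval -0.66 to 0.50) and Met at 0.05 (SE 0.24, interval -0.47 to 0.58). The intervals of Hbegf and Vegfa include a fall of 1 log2 unit, and those of Met, Egfr and Areg leave out a change of that size in either direction. Tgfa and Angpt1 were not tested in these cells. Apart from Igf1, each tested gene changed sign between the slides or between the scan days that held both treatments. Igfbp1 ran from -1.05 to 2.02 within slides and from 0.49 to 2.08 within scan days. Hgf ran from -0.86 to 0.09 and from -0.88 to -0.39. For Hbegf the ranges were -1.92 to -1.23 and -1.57 to 0.77, and for Vegfa -1.62 to -0.56 and -1.09 to 0.65. These batches held 1 or 2 arrays of each treatment.

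Marker lists moved between the treatments in the inflammatory cells. After ADSC 14 of 17 neutrophil markers were called lower in limma, against 1.09% of all genes. So were 3 of 14 monocyte and macrophage markers, 2 of 11 Kupffer cell markers and 2 of 10 basophil and mast cell markers. None of these calls held without the 3 pancreas-rich arrays or with the slide as a fixed block, where 0 genes were called. Of the B and plasma cell list 0 of 11 genes were called, but 7 were higher at an unadjusted limma p under 0.05, against 9.48% of all genes. The monocyte and macrophage list had array means of 3.74 to 4.03 after PBS and 2.59 to 3.01 after ADSC, with all 14 genes well above background on every array, and Igf1 was likewise lower in every ADSC array than in every PBS array. Within the ADSC group, of only 4 arrays, the order was the same for Igf1 and the list. The order within the PBS group is not described here, and likenesses of this kind rest on few arrays. The hepatocyte list had means of 0.07 to 1.14 after PBS and 0.93 to 2.14 after ADSC, and the array with the highest mean, ADSC 8, also had the highest Igfbp1 level. The part of these cell types in the Igf1 and Igfbp1 values was not tested.

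Hbegf lay in the same order as the mean of the immediate early list in the 4 PBS arrays, from PBS 13 (0.78) to PBS 11 (2.63), and ADSC 7 and ADSC 10 were the lowest and the highest of the ADSC arrays in both. Areg in ADSC 7 was the highest of all 8 arrays, at 0.83, although that array had the lowest mean of the list. The immediate early list itself had 0 of 16 genes called for treatment in limma, with 3 at an unadjusted p under 0.05, so its level was not shown to differ with ADSC. Its part in the spread of Hbegf was not tested.

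**Figure D5:**
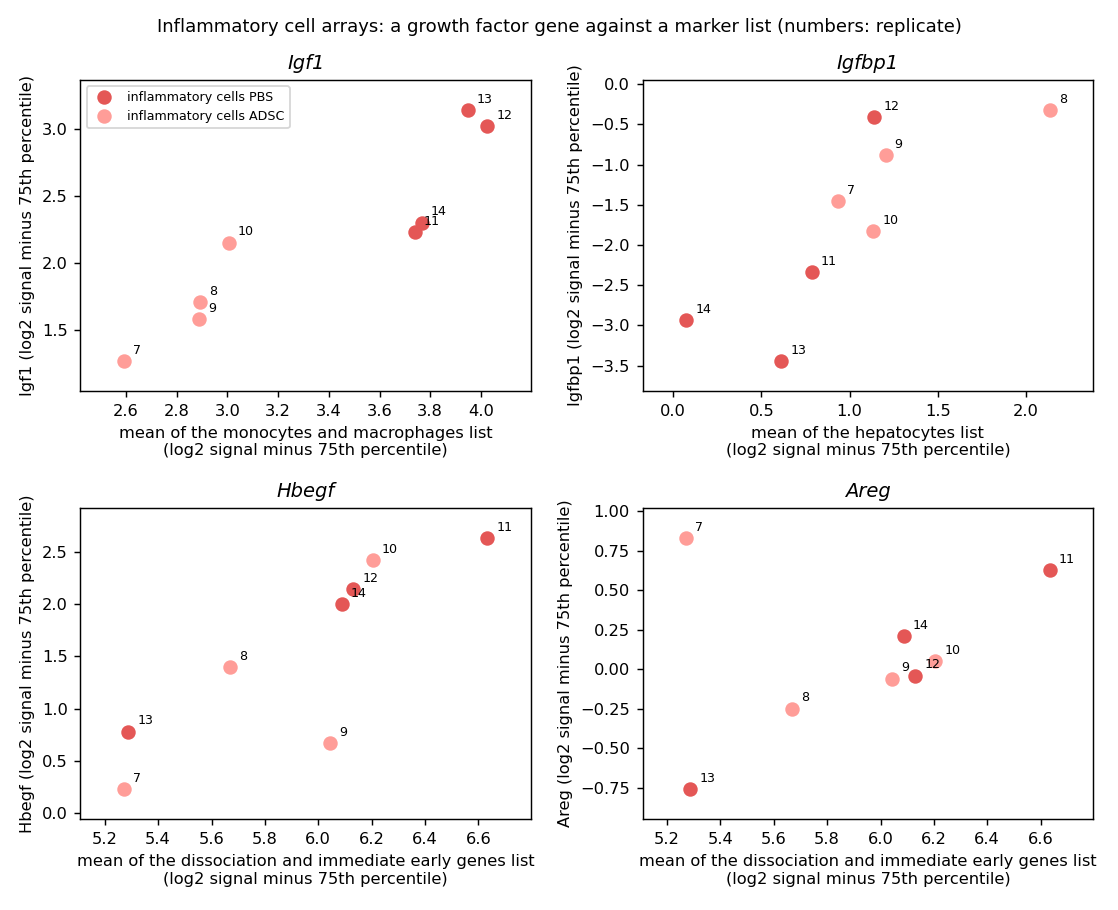
Level of 1 gene (vertical axis) against the mean of a marker list (horizontal axis) in the 8 inflammatory cell arrays, both as log2 signal minus the array's 75th percentile; numbers are the replicates. The ADSC arrays have lower Igf1 and lower monocyte and macrophage means than the PBS arrays, and in the lower right panel ADSC 7 stands apart with the highest Areg.

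The ADSC effects in the 2 sample types were also compared directly. None of the 9 genes tested passed this test in limma, against 0.0316% of all 22139 genes, and 2 of 9 had an unadjusted p under 0.05, against 10.1% of all genes. The effect on Igf1 in inflammatory cells lay below that in liver by 1.15 (estimate -1.15, SE 0.39, 95% interval -1.98 to -0.33, unadjusted p = 0.0095, limma adjusted p = 0.35). For Hgf the difference of effects was -0.69 (SE 0.26, interval -1.24 to -0.14, unadjusted p = 0.017, limma adjusted p = 0.40). Vegfa was at -0.59 with the brightest probe and at -0.96 with A_51_P482552 (SE 0.36, unadjusted p = 0.017, limma adjusted p = 0.39). Areg was at background on all liver arrays, so its value says nothing about a response in liver. For the other 8 genes a different response of the sample types was not shown.

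No pathway list had a called gene after ADSC in limma, in either sample type or for the difference. In liver the counts at an unadjusted p under 0.05 were 1 of 22 for HGF and MET, 3 of 20 for the IGF axis, 1 of 15 for the EGF family, 4 of 19 for the VEGF and angiopoietin axis, 1 of 18 for kinase feedback and 2 of 25 for the other mitogens, against the 4.65% of all genes. In inflammatory cells they were 5 of 20, 2 of 15, 3 of 13, 1 of 15, 5 of 17 and 5 of 23, against the 18.5% of all genes given above. The genes with the smallest p-values in liver were Mst1r, the MSP receptor, at -0.56 (SE 0.19), Plaur at -0.51 (SE 0.24), Igfbp6 at -1.39 (SE 0.35), Htra1 at 0.52 (SE 0.19), Erbb3 at 0.51 (SE 0.22), Rhbdf2 at -0.36 (SE 0.18), Vegfb at 0.45 (SE 0.17), Flt1, a VEGF receptor, at 0.39 (SE 0.15), Ier3 at -1.03 (SE 0.32), Etv4 at 0.47 (SE 0.24), Gdf15 at -0.33 (SE 0.11) and Wnt2 at 0.32 (SE 0.13). The 4 unadjusted VEGF axis genes were all higher, against 2.61% of all genes higher at that level, but none was called.

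In inflammatory cells the same rule named Plaur at -1.08 (SE 0.35), Plau, the urokinase that can activate HGF, at -0.59 (SE 0.21), Igfbp6 at -1.63 (SE 0.40, limma adjusted p = 0.086), Igfbp4 at 2.20 (SE 0.80), the tetraspanin gene Cd9 at -1.19 (SE 0.29, limma adjusted p = 0.085), Epgn at -0.91 (SE 0.36), Egln3 at -0.72 (SE 0.32), Vegfb at 0.56 (SE 0.32), Ier3 at -1.34 (SE 0.29, limma adjusted p = 0.056), Dusp4 at 1.06 (SE 0.31), Tnfrsf1a at -1.13 (SE 0.29) and Pdgfc at -1.18 (SE 0.34). Ier3 came nearest to the threshold. For the difference of effects it named Plau at -0.97 (SE 0.33), Mst1r at 1.26 (SE 0.49), Igfbp4 at 2.26 (SE 0.96), Irs1 at 1.16 (SE 0.70), Cd9 at -1.1 (SE 0.37), Epgn at -1.38 (SE 0.82), Angpt2 at -0.78 (SE 0.40), Flt4 at 0.61 (SE 0.32), Dusp6 at -0.65 (SE 0.26), Sgk1 at -0.73 (SE 0.32), Tyro3 at -2.12 (SE 0.59) and Tnfrsf1a at -0.92 (SE 0.33). The smallest adjusted p among these was that of Tyro3, 0.24. Irs1, Angpt2 and Flt4 were well above background on 2 of 8 cell arrays each.

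The genes whose levels ran most like a growth factor gene over the 8 arrays of a sample type are given as Pearson r. This is a description over arrays that share treatment, slide and scaling. Each is among the 3 highest r of all named genes tested, so with 8 arrays a high r can come from the picking alone. In inflammatory cells Igf1 ran with Vdac1, Tmed3 and Serf1 (r = 0.978 to 0.992), and Igfbp1 with Fetub, Igfbp2 and Pzp (r = 0.924 to 0.951), of which Fetub and Pzp encode plasma proteins made by hepatocytes. Hbegf ran with the tight junction genes Cldn3 and Cldn7 and with Plet1 (r = 0.969 to 0.979), all 3 epithelial genes. Areg ran with Slc20a1, Tnip1 and Dot1l (r = 0.963 to 0.984) and Vegfa with Abtb2, Mafk and Dedd2 (r = 0.968 to 0.974). For Hgf the nearest were Cst6, Fblim1 and the TGF-beta receptor gene Tgfbr1 (r = 0.907 to 0.930), for Met Madcam1, Cldn19 and Olfr60 (r = 0.962 to 0.969) and for Egfr Slc16a11, Palmd and Npdc1 (r = 0.975 to 0.985).

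In liver Igf1 ran with Emc6, Akr1a1 and Creb3l3 (r = 0.985 to 0.990), the last encoding a hepatocyte transcription factor, and Met with Gjb2, a hepatocyte gap junction gene, Dynll2 and Vmn1r192 (r = 0.992 to 0.996). Hgf had the loosest companions, Top2a, Rad18 and Ddc (r = 0.892 to 0.922). Igfbp1 ran with Tm2d1, Zfp868 and Ormdl2 (r = 0.965 to 0.968), Egfr with Usp3, Car2 and Adpgk (r = 0.972 to 0.977), Hbegf with Arid2, Tmem252 and Msi2 (r = 0.958 to 0.990) and Tgfa with Rdh12, Sesn3 and Tmem125 (r = 0.971 to 0.982). For Vegfa they were Zfp748, Xist and Zfp318 (r = 0.955 to 0.972). No gene was among the 3 nearest of the same growth factor gene in both sample types, but lists this short, picked from all named genes, would seldom share one. Among the growth factor genes themselves, Hbegf and Egfr ran closest together in inflammatory cells (r = 0.815) and Hgf and Igfbp1 farthest apart (r = -0.840). In liver these pairs were Met and Tgfa (r = 0.943) and Igf1 and Hbegf (r = -0.798).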

How the data were processed

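Each sample had 1 one-colour scanner file. Its processed signal is, per the file headers, an intensity from which Agilent Feature Extraction 10.5.1.1 had removed the background, having also detrended each array, with no step between arrays. The deposited value table of the series held the same intensity values (largest relative difference 0), on a linear scale and not centred, with medians of 30.6 to 90.9. Values of inflammatory cells ADSC 9 were deposited with 3 significant digits. Of 41174 probes, 23374 were named by accession through the RefSeq annotation of GRCm38.p6; the promoters come from the same assembly.

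Spots marked as outliers were left out, log2 signals were averaged per probe and scaled to the array's 75th percentile, and genes were tested whose brightest probe exceeded background well on at least 4 arrays of the comparison. limma 3.58.1 (R 4.3.3, lmFit and eBayes) was run on all genes with Benjamini-Hochberg adjustment at 0.05, ADSC against PBS within each sample type, and inflammatory cells against liver and the difference of effects over 16 arrays. The steps were tested on simulated data. Members and lists were chosen with earlier results of these data known. Named were all 10 genes, up to 5 called genes per pathway list (otherwise the 2 with the smallest p) and the 3 genes most like each growth factor gene.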

Additional observations from a re-analysis of the deposited data

Results flagged for a closer look

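Hgf was singled out because every liver ADSC array lay above the mean of the liver PBS arrays (-0.43) while every inflammatory cells ADSC array lay below the mean of the inflammatory cells PBS arrays (-2.50). The ADSC effect in inflammatory cells minus that in liver was -0.69 (SE 0.26, limma adjusted p = 0.40), so a difference between the sample types was not shown. The liver difference was 0.12 and the liver groups overlapped. No array stood apart from the others of its group in any of the 40 sets of 4 arrays examined by Dixon's criterion.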

How the results depend on the processing

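The 6 differences between inflammatory cells and liver (Areg, Hbegf, Igfbp1, Egfr, Igf1, Hgf) kept their direction and their call under every alternative run in which the gene was tested, each left-out array and each other probe included, and the count of called genes ran from 4 to 9. Over all settings, 93 of the counts were equal to the reported one or within 1.5 times of it, and 2 were not. For ADSC in either sample type and for the difference of effects the reported count was 0, so there staying means only that it was still 0. Of the single estimates 761 kept direction and call, 17 became called and 51 turned sign. None of the 51 was called in the reported fit. In inflammatory cells 1 gene, Igf1, was called for ADSC with normexp background correction and with array weights. Counts over all genes ran from 0 to 13 in liver, from 0 to 914 for the difference of effects, and from 10425 to 26131 between the sample types. In inflammatory cells they ran from 0 to 4462, the latter with array weights, against 246 in the reported fit. They were 0 there both with the slide as a fixed block and without the 3 pancreas-rich arrays.

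In liver, ADSC minus PBS turned with the slide as a fixed block for Hgf (-0.059), Met (-0.74), Igf1 (-0.30), Egfr (0.14), Vegfa (-0.44) and Tgfa (-0.36). With the scan day as a fixed block it turned for Met (-0.28), Igf1 (-0.090), Egfr (0.22), Vegfa (-0.34) and Tgfa (-0.12). The slide block sets PBS 13 against ADSC 7, and the scan day block sets PBS 13 against ADSC 7 and 9. These turns with a fixed block thus all rest on the single array PBS 13. Met turned with the slide as a random block (-0.052) and Tgfa with its other probe (-0.073). Leaving out 1 array each, Met ran from -0.11 to 0.22, Igf1 from -0.061 to 0.31 and Hbegf from -0.055 to 0.13. In inflammatory cells Hgf (0.085) and Egfr (0.14) turned with normexp, Met with quantile normalization (-0.017), Egfr with the percentile over detected probes (0.043), and Areg with the slide as a fixed block (-0.0067) and with array weights (-0.15). Leaving out 1 array each, Met ran from -0.068 to 0.21, Egfr from -0.26 to 0.065 and Areg from -0.13 to 0.34.

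For the difference of effects Met turned with the percentile over detected probes (0.12), slide (0.14) or scan day (0.15) as a fixed block, slide as a random block (0.014) and without the 3 pancreas-rich arrays (0.17, chosen after seeing the data, as were the other probes). Egfr (-0.019) and Areg (0.23) turned with scan day, Areg with slide (0.13), and Tgfa with quantile normalization (-0.012). Leaving out 1 array each, Met ran from -0.16 to 0.17 and Tgfa from -0.0066 to 0.37. Between the sample types Vegfa turned with probe A_52_P249424 (-0.53) and ran from -0.010 to 0.29 with 1 array left out, and Tgfa turned with normexp (0.13) and with the percentile over detected probes (0.028). The cause of these changes was not tested.

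Whether the numbers shared by the sample types pair the arrays is not settled. Correlations of deviations between arrays of the same number were weak, from -0.06 to 0.17. For liver arrays 12, 7, 8 and 9 the most correlated cell array of the same treatment had the same number. For 11, 13, 14 and 10 it did not. With the replicate block the difference of effects still had 0 called genes of the 10, and 6 of them were called between the sample types, and it changed no other call. With 4 arrays a group and 5 slides, precision is limited by the number of arrays, and dim genes (Tgfa, Angpt1, Areg in liver) by signal over background.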
